A study of Mus musculus with 6 samples.

Results

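Complex I, the NADH dehydrogenase that starts the mitochondrial respiratory chain, is assembled from many protein subunits encoded in the nucleus and a few encoded in mitochondrial DNA. Its peripheral arm holds an N module, which oxidises NADH, and a Q module, which reduces ubiquinone. Its membrane arm pumps protons. Core subunits carry out the chemistry, accessory subunits surround and stabilise them, and assembly factors help to build the complex but are not part of the finished enzyme. Gene symbols starting with Nduf name both kinds of gene, with Ndufaf marking assembly factors.

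The Nduf genes were taken from the deposited table by symbol, as Ndufa, Ndufb, Ndufc, Ndufs, Ndufv or Ndufaf followed by a number. This gave 45 of 23281 genes. Of these, 35 encode subunits: 7 core subunits, 5 accessory subunits of the N module, 4 of the Q module, 9 in the proximal and 10 in the distal membrane arm. Another 8 are the assembly factor genes Ndufaf1 to Ndufaf8. Ndufa4, whose protein is now placed with complex IV, and its relative Ndufa4l2 were counted apart as 2 genes. All 45 genes had a mean of at least 100 reads and were tested.

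The samples were 6 nuclear RNA libraries from female mouse cells of a 129S x Cast background, grown in ES medium. On the 129S allele the Xist promoter had been exchanged for a TetOn promoter, and a Bgl stem-loop stood at the 3′ end of Xist. All 6 sample titles begin with BglHalo_Xist. Doxycycline was given to all cells at 1 µg/ml for 17.5 to 20 h, followed by 500 µM 4-thiouridine (4sU), a uridine analogue that enters new RNA, with doxycycline for 4 h. They were collected at 0 min, or after 30, 60, 90, 120 or 150 min in medium with 50 mM uridine and doxycycline. SLAM-seq alkylates the 4sU so that it is read as C, and labelled RNA is then counted from T-to-C (T>C) conversions. Each time had 1 library. Doxycycline and 4sU were given in all 6, so Xist induction is shared by all samples and has no control among them. Loss of label from nuclear RNA can come from decay or from export, which cannot be told apart in these data.

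The libraries held 18558073 to 28535162 reads. Summed over all genes, the T>C rate in time order was 4.05%, 2.69%, 4.11%, 2.57%, 1.55% and 1.17%, so the libraries read as 30 and 60 min were out of time order. All 8 embryonic stem cell markers were present, at 2585 to 3037 CPM in sum over the libraries (reads scaled to library size with TMM). All 8 fibroblast feeder markers had reads as well, at 2552 to 3993 CPM in sum, although feeder cells were to be discarded by pre-plating. Most of that sum was Fn1, at 2248 to 3572 CPM, while Postn averaged 40.2 reads per library. The 2 sums therefore do not give the proportions of the cell types. The median labelled share of the 7 feeder markers tested was 12.2% at 0 min and 14.6% at 150 min. Their range at 0 min was 8.98% to 72.8%. Twist1 went from 72.8% at 0 min to 27.4% at 150 min, and Pdgfra from 52.9% to 26.8%. Over the 8 embryonic stem cell markers the median was 78.2% at 0 min (range 8.49% to 90.8%) and 15.2% at 150 min. Fibroblasts express complex I too, and their part in the values below was not tested.

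Transcripts of complex I subunits carried little label, and most were called in neither direction over the washout. Of the 8 assembly factor transcripts 3 were called as losing label, against 52.3% of all genes tested. The calls for Ndufaf3 and Ndufaf8 were lost without the 150 min library. The labelled share is the authors' posterior mean of the fraction of a gene's reads that come from labelled RNA. In time order, from 0 to 150 min, its median over the 35 subunits was 15.1%, 17.1%, 14.0%, 17.3%, 16.8% and 14.8%. Over the 8 assembly factors it was 28.4%, 23.3%, 25.7%, 25.9%, 21.7% and 20.7% at the same times. Over all 11462 genes tested it was 46.8%, 45.8%, 44.5%, 39.3%, 27.7% and 21.1%. The subunit median was the lowest of the 3 at every time, and its distance to the median of all genes was smallest at 150 min. In rank among all genes tested, the median subunit stood at percentile 7.42 at 0 min and 21.2 at 150 min.

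The decline was tested by regressing the log (base e) of that share on time (limma, Benjamini-Hochberg adjustment over all genes tested, threshold 0.05). Of the 35 subunits, 1 fell and 1 rose. Of the 8 assembly factors, 3 fell and 0 rose, and neither Ndufa4 nor Ndufa4l2 was called. Of all genes tested 52.3% fell and 1.19% rose. The sign of the slope was negative for 13 of 35 subunits, for 5 of 8 assembly factors and for 9386 of 11462 genes in all. The median decay rate, the slope with its sign turned, was -0.04 per h over the subunits (range -0.35 to 0.29), 0.10 per h over the assembly factors (-0.12 to 0.46) and 0.25 per h over all genes. With 1 library per time, p-values rest on the scatter of 6 libraries around a line, with 4 residual degrees of freedom per gene. In limma that scatter is moderated, that is, drawn towards the scatter of all genes fitted. The p-values and SE of the fit therefore do not come from a gene's own 6 values alone. The counts are set side by side as a description, because the difference between the 2 classes of gene was not tested.

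**Figure D1:**
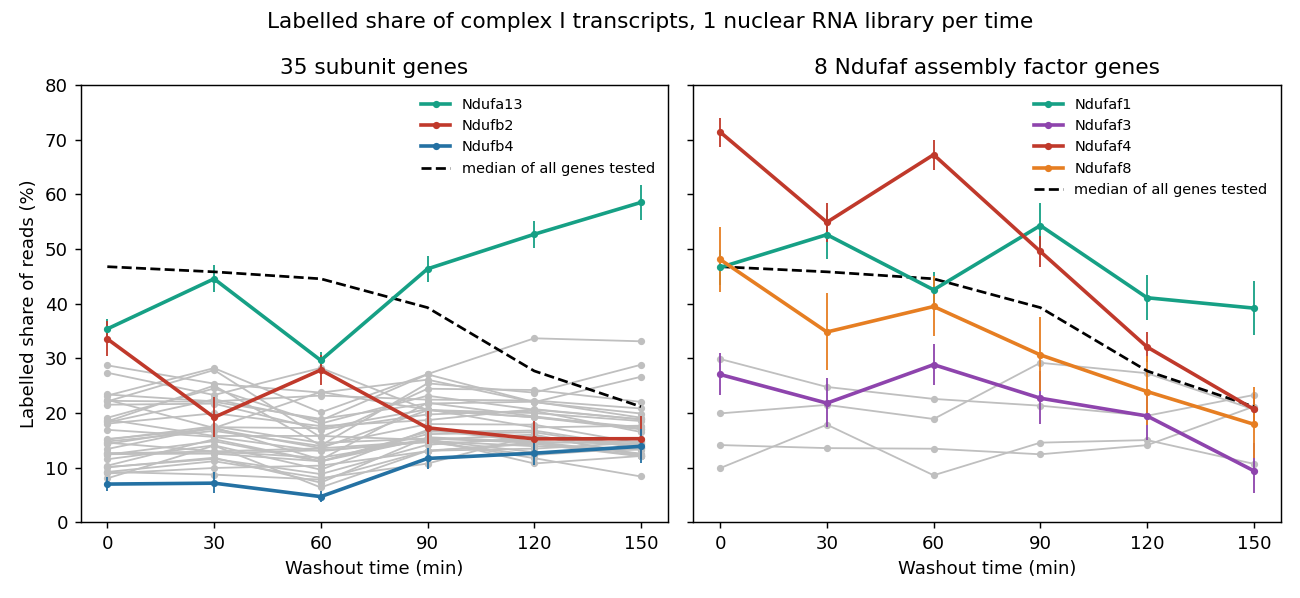
Labelled share of reads (%) against washout time (min) for 35 subunit genes (left) and 8 assembly factor genes (right), 1 library per time; grey lines are single genes, coloured lines the genes in the legend with 5% to 95% posterior ranges, and the dashed line is the median of all genes tested. Most subunits stay between about 5% and 30% throughout, while Ndufaf4 is at 71.4% at 0 min and 20.7% at 150 min.

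Ndufaf4 had the largest decay rate of the 45 genes. In human cells NDUFAF4 works with NDUFAF3 early in the assembly of the Q module. The labelled share of Ndufaf4 (ENSMUSG00000028261; chromosome 4, 24898083 to 24905001 in mm10, plus strand) was 71.4%, 54.9%, 67.2%, 49.5%, 32.1% and 20.7% in time order. The 5% to 95% range of the posterior was 68.7 to 74.0% at the start and 17.9 to 23.5% at the end. Every library from 90 min on was below the first 3, and the 60 min library was above the 30 min one. The decay rate was 0.464 ± 0.101 per h (SE of the fit, limma adjusted p = 0.00118). The half-life was thus 89.7 min (73.6 to 115 min within 1 SE). On labelled abundance, the share times the scaled reads, the decay rate was 0.285 per h (limma adjusted p = 0.0379) and the half-life 146 min. The raw T>C rate of Ndufaf4 was 7.37%, 3.55%, 8.01%, 3.77%, 1.65% and 1.02% in time order and fell as well, halving in 56.3 min (limma adjusted p = 0.00171). That decline in T>C rate was not called with the 150 min library left out (adjusted p = 0.0797).

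Ndufaf8 and Ndufaf3 also fell in both measures. NDUFAF8 is known in human cells as the partner that stabilises NDUFAF5. The labelled share of Ndufaf8 (ENSMUSG00000078572; chromosome 11, 120098928 to 120100705, plus strand) was 48.1%, 34.8%, 39.5%, 30.6%, 23.9% and 17.9% in time order. Its posterior ranges at 0 min (42.2 to 54.0%) and 150 min (11.8 to 24.8%) did not overlap, although it had the lowest mean read number of the 45 genes, with 140 to 200 reads per library. Its decay rate was 0.361 ± 0.0904 per h (limma adjusted p = 0.00325), and its half-life 115 min (92.2 to 154 min within 1 SE). Its T>C rate was 4.55%, 2.21%, 4.55%, 2.68%, 1.16% and 1.05% in time order and halved in 74.3 min (limma adjusted p = 0.00891). The 2 libraries with the highest T>C rate were those of 0 and 60 min, as for Ndufaf4. With the 150 min library left out neither decline was called (limma adjusted p = 0.0604 for the share and 0.125 for the T>C rate), nor was that of the T>C rate with the 0 min library left out (0.0580).

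Ndufaf3 (ENSMUSG00000070283; chromosome 9, 108565537 to 108567434, minus strand) encodes the partner of Ndufaf4 known from human cells. Its labelled share was 27.0%, 21.8%, 28.8%, 22.7%, 19.4% and 9.41% in time order, with posterior ranges of 23.3 to 30.9% at the start and 5.28 to 14.4% at the end. The 150 min library stood apart below the other 5, which lay between 19.4% and 28.8%. The decay rate was 0.335 ± 0.110 per h (limma adjusted p = 0.0174), and the half-life 124 min (93.6 to 185 min within 1 SE). The call rested on that library. Leaving it out gave a rate of 0.124 per h (limma adjusted p = 0.490) and thus 336 min. Weighting libraries by the posterior gave 0.166 per h and 251 min (0.257), and the call was also lost with no read minimum (0.0605). Its T>C rate was 2.92%, 1.49%, 3.60%, 1.90%, 1.07% and 0.645% in time order, with a limma adjusted p of 0.0150 (0.285 with the 150 min library left out and 0.0554 with that of 0 min left out). The T>C rate declined by 0.524 per h, or by 0.866 per h over bases covered by both mates. The medians over all genes tested were 0.512 and 0.560 per h, so the first value was close to that of the median gene.

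The promoters of the 2 genes with the largest decay rates, Ndufaf4 and Ndufaf8, are shown with that of a subunit, Ndufb8, whose share was not called (limma adjusted p = 0.747). Ndufb8 was chosen for display after its values were seen. The sequences are from RefSeq (GRCm38.p6), run 5′ to 3′ along the gene's strand from 250 bases before the start to 50 after it, and capitals mark matches to the motifs named in the next paragraph.
Ndufaf4 (chr4:24897833-24898132, plus strand): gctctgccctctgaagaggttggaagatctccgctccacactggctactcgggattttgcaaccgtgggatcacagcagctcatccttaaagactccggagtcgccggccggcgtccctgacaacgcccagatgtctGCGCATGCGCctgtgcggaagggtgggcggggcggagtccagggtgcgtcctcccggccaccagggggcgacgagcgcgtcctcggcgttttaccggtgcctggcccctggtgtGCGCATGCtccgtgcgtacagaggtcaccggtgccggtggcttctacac
Ndufaf8 (chr11:120098684-120098983, plus strand): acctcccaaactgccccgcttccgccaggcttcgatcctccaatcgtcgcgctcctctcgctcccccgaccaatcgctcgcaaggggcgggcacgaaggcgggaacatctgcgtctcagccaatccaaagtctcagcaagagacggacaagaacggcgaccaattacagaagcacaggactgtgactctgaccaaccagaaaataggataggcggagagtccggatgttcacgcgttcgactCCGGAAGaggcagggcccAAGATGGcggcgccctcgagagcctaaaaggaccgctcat
Ndufb8 (chr19:44555393-44555692, minus strand): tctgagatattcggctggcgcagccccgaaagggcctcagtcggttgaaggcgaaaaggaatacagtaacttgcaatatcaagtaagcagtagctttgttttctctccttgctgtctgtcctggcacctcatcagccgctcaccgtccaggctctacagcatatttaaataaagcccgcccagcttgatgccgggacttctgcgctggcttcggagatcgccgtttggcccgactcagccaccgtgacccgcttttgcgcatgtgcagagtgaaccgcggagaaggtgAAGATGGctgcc

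The motifs searched, on both strands, were GCGCATGC for NRF1, a regulator of nuclear genes for mitochondrial proteins, CCGGAAG for ETS factors, AAGATGG for YY1 and TATAAA for the TATA box. RefSeq held a promoter for 39 of the 45 genes, 31 of them subunits and 7 assembly factors. GCGCATGC was found in 3 of 31 subunit promoters (Ndufa6, Ndufa8, Ndufa11), in 2 of 7 assembly factor promoters (Ndufaf4, Ndufaf5) and in 3.05% of all 27025 promoters. In Ndufaf4 it began 113 bases before the start and at base 2 after it, and the first match overlapped a match on the reverse strand. AAGATGG was found in 7 of 31 subunit promoters, in 1 of 7 assembly factor promoters and in 7.28% of all promoters. It began at base 39 after the start in Ndufb8 and at base 11 in Ndufaf8, which also held CCGGAAG 8 bases before the start. CCGGAAG was found in 4 of 31 and 2 of 7 promoters, and in 9.93% of all. TATAAA was found in 4 of 31 and 0 of 7, and in 15.7% of all. A match is a description of the letters, and binding was not measured.

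The other 5 assembly factors did not pass on the labelled share. Ndufaf1, part of the human MCIA complex that assembles the membrane arm, was the most highly labelled of them, at 46.6%, 52.6%, 42.5%, 54.3%, 41.1% and 39.2% in time order (decay rate 0.0782 ± 0.0905 per h, limma adjusted p = 0.498). It was the assembly factor with the highest level, at 13.8 RPKM (reads per kb of the length in the table, scaled to library size). Ndufaf5, whose human protein hydroxylates an arginine of NDUFS7, was at 29.9%, 24.8%, 22.6%, 21.3%, 19.5% and 23.3% (limma adjusted p = 0.299). For both genes the raw T>C rate did fall. It was 4.61%, 3.64%, 4.73%, 3.59%, 2.01% and 1.70% for Ndufaf1 (limma adjusted p = 0.0344), with the 0 and 60 min libraries highest. The call was lost with the 0, 120 or 150 min library left out (adjusted p = 0.114, 0.141 and 0.292), and with no read minimum (0.0515).

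The T>C rate of Ndufaf5 was 3.12%, 1.67%, 2.57%, 1.57%, 0.670% and 1.27% (limma adjusted p = 0.0311), with the 120 min library lowest. That call was lost with the 0, 90, 120 or 150 min library left out (adjusted p = 0.206, 0.0618, 0.216 and 0.0554), with bases covered by both mates (0.139) and with no read minimum (0.0561). Ndufaf6, an early assembly factor in human cells, was at 14.1%, 13.6%, 13.4%, 12.4%, 14.1% and 21.2% labelled (limma adjusted p = 0.319), with the highest value at 150 min. Ndufaf7, a protein arginine methyltransferase in human cells, was at 19.9%, 21.5%, 18.9%, 29.2%, 27.3% and 20.6% (limma adjusted p = 0.538), with the 90 and 120 min libraries highest. Ndufaf2, a paralogue of the subunit gene Ndufa12, lay between 8.59% and 17.9% (limma adjusted p = 0.887). Most of the Ndufaf2 length in the table overlaps an antisense gene, B230220B15Rik, over 1955 of 2404 nt, and whether the authors counted by strand is not stated in the sources used.

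**Figure D2:**
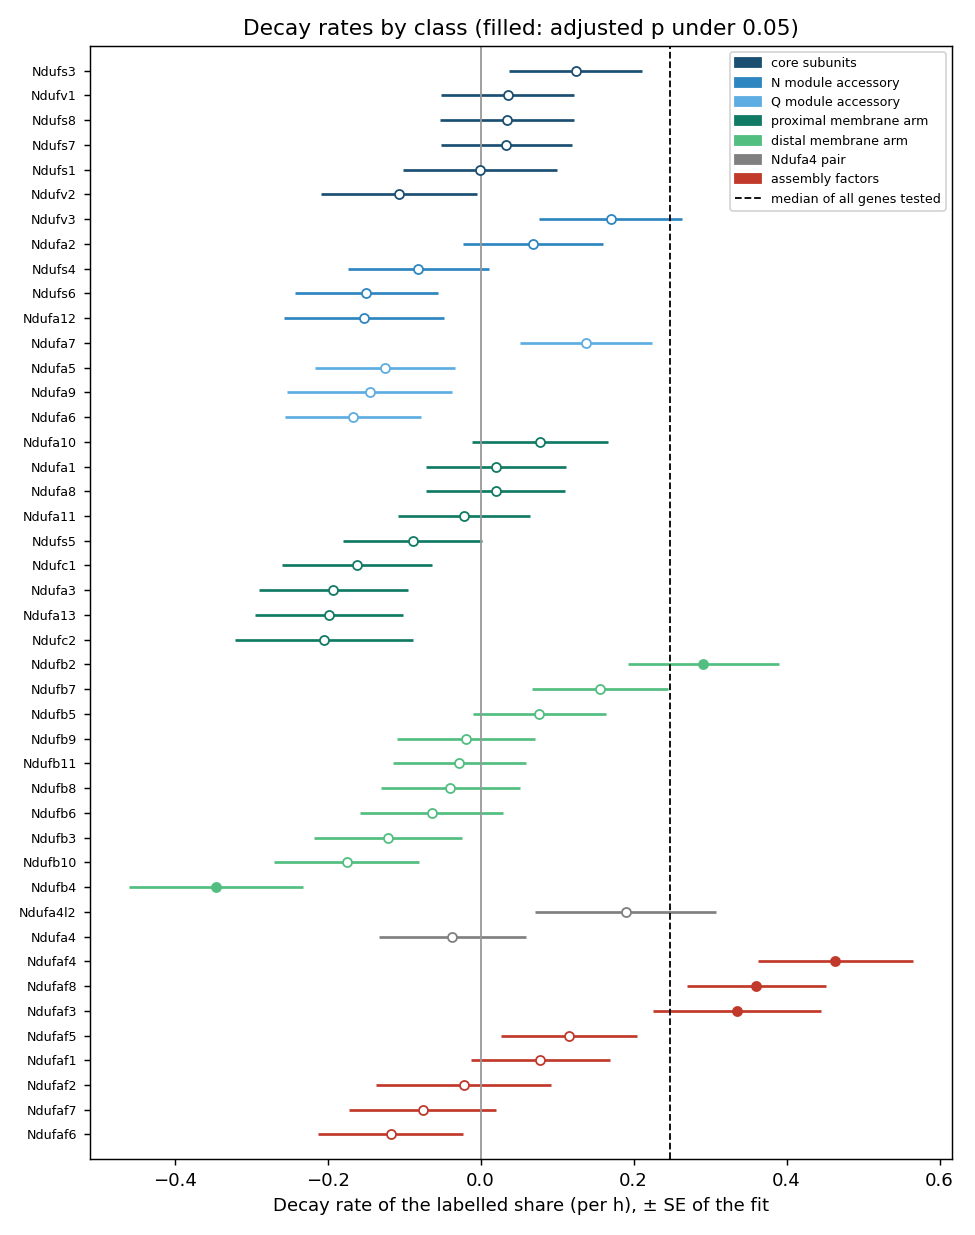
Decay rate of the labelled share (per h, point) with the SE of the fit (bar) for 44 of the 45 genes by class; filled points passed at an adjusted p under 0.05, and the dashed line is the median of all genes tested. Of the filled points, Ndufaf4, Ndufaf8, Ndufaf3 and Ndufb2 lie right of 0.25 per h and Ndufb4 lies left of 0.

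Among subunits, only Ndufb2 fell on the labelled share by limma. Ndufb2 (ENSMUSG00000002416; chromosome 6, 39592574 to 39603382, plus strand) encodes a small accessory subunit of the distal membrane arm. Its labelled share was 33.5%, 19.2%, 27.9%, 17.3%, 15.2% and 15.3% in time order, with posterior ranges of 30.4 to 36.8% at the start and 11.5 to 19.4% at the end. The 0 and 60 min libraries were high and the other 4 low. The decay rate was 0.291 ± 0.0990 per h (limma adjusted p = 0.0210), and the half-life 143 min (107 to 216 min within 1 SE). The call was lost without the 0, 120 or 150 min library, with limma adjusted p of 0.213, 0.0697 and 0.0558, and with no read minimum (0.0574). Ndufb2 also had the lowest level of the 45 genes per kb, at 4.27 RPKM. That level was divided by its table length of 4371 nt, against a median of 983 nt over the subunits. The table length of Ndufb2 overlaps exons of Gm42420 on its own strand (145 nt) and of Braf and Gm16272 on the other (302 nt). In reads, every subunit of the distal arm averaged at least 442.8 per library, against a median of 366 for assembly factors.

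Ndufb4, another accessory subunit gene of the distal membrane arm, rose by limma. Its labelled share (ENSMUSG00000022820; chromosome 16, 37647170 to 37654453, minus strand) was 6.98%, 7.15%, 4.69%, 11.7%, 12.6% and 13.9% in time order, with posterior ranges of 5.77 to 8.28% at the start and 10.9 to 17.1% at the end. The 3 libraries from 90 min on were above the 3 before. The decay rate was -0.346 ± 0.114 per h (limma adjusted p = 0.0176), and the call was lost when the 150 min library was left out (0.0929), when the logit was used (0.0545), on labelled abundance (0.0816) and with no read minimum (0.0642). The T>C rate of Ndufb4 was 0.756%, 0.560%, 0.567%, 1.01%, 0.833% and 0.813%, with no call (limma adjusted p = 0.490). A near copy of the gene, Ndufb4c, is annotated as a processed pseudogene, so its read assignment is uncertain, as for Ndufs6 and Ndufa11 with Ndufs6b and Ndufa11b.

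Medians by class were taken over all 35 subunits, Ndufb2 and Ndufb4 included. The 7 core subunits, among them Ndufv1 and Ndufs1, which bind the flavin and iron-sulfur clusters, had a median labelled share of 22.1% at 0 min and 19.1% at 150 min, and a median decay rate of 0.03 per h. Accessory subunits of the N module had 18.4% and 17.4% (-0.08 per h), and those of the Q module had 14.2% and 12.9% (-0.14 per h). Those of the proximal membrane arm had 13.4% and 16.5% (-0.09 per h), and those of the distal arm 12.5% and 13.8% (-0.03 per h). No class median thus reached the 0.25 per h of all genes. Next to Ndufb2 among the largest rates stood Ndufv3, an accessory subunit of the N module, at 14.6%, 13.0%, 13.5%, 14.8%, 11.7% and 8.37% (0.170 ± 0.0933 per h, limma adjusted p = 0.139). Next to Ndufb4 among the smallest stood Ndufc2, a membrane arm subunit, at 8.03%, 14.0%, 6.37%, 13.1%, 13.5% and 14.6% (-0.205 ± 0.116 per h, limma adjusted p = 0.153). In Ndufv3 the lowest library was that of 150 min, and in Ndufc2 those of 0 and 60 min were lowest.

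Between the first and the last library alone, the posterior ranges separated more subunits, in both directions. The posterior range at 150 min lay below that at 0 min for 7 of 35 subunits, above it for 10 and overlapped it for 18. For assembly factors the counts were 3 below (Ndufaf3, Ndufaf4 and Ndufaf8), 0 above and 5 overlapping. Of all 11462 genes tested the range was below in 71.8%, above in 7.58% and overlapping in 20.6%. These ranges cover the uncertainty of 1 library and not a spread between cultures. Their median width was 2.51 percentage points at 0 min and 4.70 at 150 min for subunits, and 6.36 and 9.59 for assembly factors, which had a median of 366 reads per library, against 1559 for subunits.

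The subunit with the largest gain in percentage points was Ndufa13, also called Grim-19, which was named after its values were seen. Its labelled share was 35.4%, 44.5%, 29.6%, 46.4%, 52.7% and 58.5% in time order, with posterior ranges of 33.7 to 37.1% at the start and 55.4 to 61.6% at the end. It stood at percentile 35.5 of all genes tested at 0 min and at percentile 99.8 at 150 min. The slope did not pass (-0.198 ± 0.0971 per h as a decay rate, limma adjusted p = 0.0987), and the T>C rate was 3.13%, 2.54%, 3.46%, 3.09%, 2.54% and 2.44% (limma adjusted p = 0.648). Its exons overlap those of Tssk6 on the other strand over 375 of 1251 nt. Ndufa4l2, a hypoxia-induced relative of Ndufa4 named for the same reason, was the least labelled of the 45 genes, at 0.85% to 2.15%. Ndufa4 had at most 19.3%, within the range of the subunits.

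The raw T>C rate, the conversions divided by the T positions covered, gave more declines than the labelled share. It fell for 3 of 35 subunits (Ndufb2, Ndufb7 and Ndufv3), for 5 of 8 assembly factors (Ndufaf1, Ndufaf3, Ndufaf4, Ndufaf5 and Ndufaf8) and for 66.9% of the 11459 genes tested, and rose for 0 (limma, 0% of all genes). At an unadjusted p under 0.05, 0 of all genes rose as well. The slope was negative for 32 of 35 subunits, for 8 of 8 assembly factors and for 11301 of the 11459 genes tested. The median decline in T>C rate was 0.207 per h over subunits, 0.422 over assembly factors and 0.512 over all genes. Of the genes called, Ndufaf3, Ndufaf4 and Ndufaf8 declined faster than that all-gene median, and the others more slowly. No background conversion rate was subtracted before these fits, and its part in the lower declines of genes with low T>C rates was not tested. The median T>C rate of the subunits was 1.63%, 1.28%, 1.79%, 1.36%, 0.993% and 0.844% in time order. For the assembly factors it was 3.02%, 1.66%, 3.09%, 2.12%, 1.13% and 1.03%, and for all genes 4.70%, 3.02%, 5.04%, 2.76%, 1.51% and 1.08%. The 60 min library exceeded the 30 min library in T>C rate for 31 of 35 subunits, 7 of 8 assembly factors and 94.2% of all genes. In labelled share it did so for 8 of 35, 3 of 8 and 47.1%.

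The ratio of the 2 measures differed between libraries. The T>C rate divided by the labelled share had a median over subunits of 10.5%, 7.39%, 11.9%, 8.09%, 6.19% and 5.50% in time order. Over assembly factors it was 10.1%, 6.73%, 11.7%, 7.72%, 5.02% and 5.21%, and over all genes tested 10.2%, 6.78%, 11.6%, 7.20%, 5.52% and 5.14%. In all 3 groups the 60 and 0 min libraries were highest, followed by those of 90 and 30 min. The sources used do not say how the authors set the conversion rate of labelled RNA in each library, and its part in the flat share of the subunits was not tested. Across the 35 subunits the decay rates by the 2 measures had a Pearson r of 0.92 and a Spearman rho of 0.92, as a description over genes that share all 6 libraries.

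**Figure D3:**
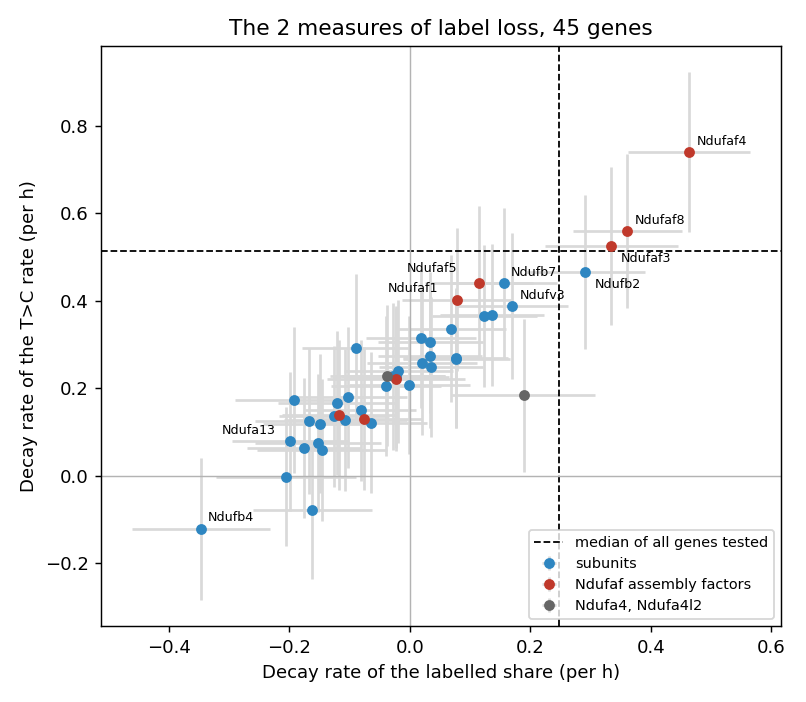
Decay rate of the raw T>C rate against that of the labelled share (both per h) for the 45 genes, with the SE of each fit as bars and the medians of all genes tested as dashed lines. The genes lie along 1 band, with Ndufaf4 at its upper right end and Ndufb4 at its lower left end.

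Among the subunits called on T>C rate alone, Ndufb7, of the distal membrane arm, had 3.23%, 1.78%, 3.81%, 1.68%, 1.28% and 0.992% (limma adjusted p = 0.0286). Its labelled share was 27.4%, 23.3%, 28.2%, 20.5%, 20.0% and 18.5% (limma adjusted p = 0.155), and the 0 and 60 min libraries were high in both. The T>C rate of Ndufv3 was 1.63%, 1.02%, 1.67%, 1.24%, 0.784% and 0.523% (limma adjusted p = 0.0452), lowest at 150 min. Its T>C rate declined by 0.387 per h, or by 0.254 per h with the 150 min library left out. With no read minimum both calls were lost (limma adjusted p = 0.0505 for Ndufb7 and 0.0675 for Ndufv3). The counts of subunits called on T>C rate rested on the libraries at hand. When the 0, 90, 120 or 150 min library was left out 0 subunits fell, whereas 6 fell with the 30 min library left out and 11 with the 60 min library left out. Of the assembly factors, 1 fell with the 0 min library left out, 3 with that of 120 min and 0 with that of 150 min. Of all genes tested, 49.3%, 69.5%, 80.6%, 64.2%, 50% and 23.6% fell when the libraries were left out in time order.

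Subunit genes stood at higher levels than assembly factor genes. The level, in RPKM, had a median over genes of 50.8 for subunits (range 4.27 to 264), 8.87 for assembly factors (6.97 to 13.8) and 10.7 for all genes tested. All subunits but Ndufb2 were above the highest assembly factor, Ndufaf1. The highest subunit was Ndufa1, a small membrane protein gene on the X chromosome, at 318, 241, 306, 267, 232 and 221 RPKM in time order. Ndufb9, which belongs to the LYR family in the distal membrane arm, had 285, 213, 270, 239, 215 and 202. Both were highest in the 0 and 60 min libraries and lowest at 150 min. Their labelled shares were 12.6%, 12.6%, 11.2%, 15.3%, 10.8% and 12.1% for Ndufa1 and 14.8%, 16.7%, 13.9%, 17.96%, 17.9% and 14.4% for Ndufb9, neither called.

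The lowest subunits in level were Ndufb2 and Ndufb7, at 4.27 and 18.7 RPKM. Ndufb7 has 4435 nt in the table, against a median of 623 nt for its coding transcripts. The table length of Ndufb2 is also above the subunit median of 983 nt, and a longer length lowers the RPKM. By class the median level was 38.6 for the core subunits, 46.8, 82.8, 50.8 and 57.6 for the accessory subunits of the N module, Q module, proximal arm and distal arm, and the classes overlapped. Among assembly factors Ndufaf1 and Ndufaf4 were highest, at 13.8 and 10.1, and Ndufaf5 and Ndufaf6 lowest, at 6.99 and 6.97. Ndufaf5 and Ndufaf6 ranged over 6.19 to 8.76 and 5.28 to 8.79 in the 6 libraries, so their order is within the spread between libraries. Across the 35 subunits, level and labelled share at 0 min had a Pearson r of -0.26 and a Spearman rho of -0.34, as a description.

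**Figure D4:**
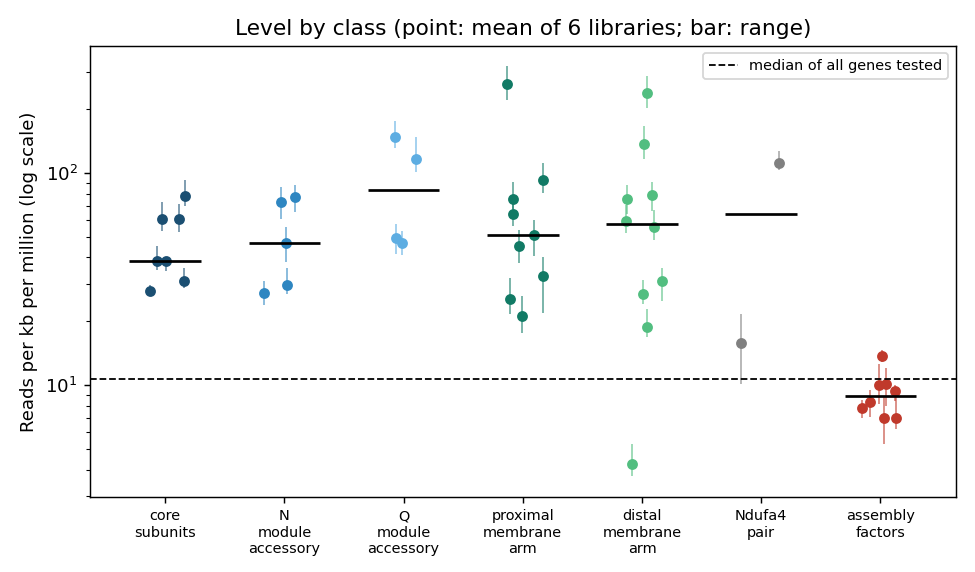
Level in RPKM (reads per kb, log axis) by class; points are means of the 6 libraries, bars the range over libraries, black lines class medians and the dashed line the median of all genes tested. The 8 assembly factors lie between 6.97 and 13.8, and of the subunits only Ndufb2, at 4.27, lies below them.

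A share measured at 0 min gives a second reading of turnover, as the half-life that would give that share after 4 h of labelling at steady state. Its median was 1016 min for subunits, 498 min for assembly factors and 264 min for all genes tested. Ndufaf4 had 133 min by this measure, against 89.7 min from the washout. Ndufaf8 had 254 min, Ndufaf3 528 min and Ndufb2 407 min, and Ndufb4 had 2299 min. Both measures use the 0 min library.

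Total reads over the washout bear on the half-lives, which assume constant levels. No gene among the 45 was called by edgeR (quasi-likelihood test, Benjamini-Hochberg adjustment), and of all 15743 genes tested 0 (0%) fell and 0 (0%) rose. Because this fit called no gene at all, the lack of calls does not show that levels were constant. At an unadjusted p under 0.05, 5 of the 45 had negative slopes (Ndufaf6, Ndufa4l2, Ndufb8, Ndufb11 and Ndufa1) and 1 a positive one (Ndufaf4), against 1603 and 1813 of all genes. DESeq2 called 0 of the subunits and 0 of the assembly factors, and 309 lower and 275 higher of 13802 genes. The slopes were negative for 35 of 35 subunits, 6 of 8 assembly factors and 8038 of 15743 genes. The median slope was -0.11 log2 per h for subunits, -0.08 for assembly factors and -0.004 for all genes.

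In sum over genes, the subunits had 2682, 2283, 2858, 2389, 2200 and 2159 CPM in time order, and the assembly factors 136, 126, 139, 138, 132 and 139 CPM. The subunit sum was highest in the 60 and 0 min libraries, which were also highest in T>C rate. Of the 35 subunits, 30 had their highest value in the 60 min library, as had 3 of 8 assembly factors. This count was not taken over all genes, so a peak particular to these subunits is not shown. The sum over 38 subunits of complexes II to V was highest in the same 2 libraries, at 9387 CPM at 60 min and 8594 CPM at 0 min. The feeder marker sum was 3993, 2968, 3096, 2552, 3328 and 2704 CPM and was highest at 0 and 120 min. Fn1 made up most of it, with 3572 CPM at 0 min and 2857 CPM at 120 min. The part of these differences between libraries in the subunit slopes was not tested. Scaled reads are relative to each library's other genes and do not show absolute levels.

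Ndufaf4 had 29.1, 33.0, 28.9, 43.5, 41.6 and 43.6 CPM, a slope of 0.26 ± 0.075 log2 per h (edgeR unadjusted p = 0.00467 and adjusted p = 0.113). The 3 libraries from 90 min on were above the 3 before, while its labelled share was lower in them. With the 60 min library left out, edgeR called 1 of the 45 genes as rising, Ndufaf4, and of all 15383 genes then tested 5.06% rose and 4.13% fell. Ndufaf6 had 9.51, 7.62, 8.72, 7.34, 6.37 and 5.71 CPM, a slope of -0.27 ± 0.087 log2 per h (edgeR adjusted p = 0.132). For Ndufaf4 and Ndufaf6 the value after ± is the size of the slope divided by the square root of edgeR's F statistic. On the X chromosome, which carries the induced Xist, Ndufa1 had 133, 101, 128, 112, 97.3 and 92.4 CPM (edgeR adjusted p = 0.197) and Ndufb11 had 147, 113, 151, 119, 106 and 108 CPM (edgeR adjusted p = 0.230). Both were highest in the 0 and 60 min libraries, as was the sum over all subunits.

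**Figure D5:**
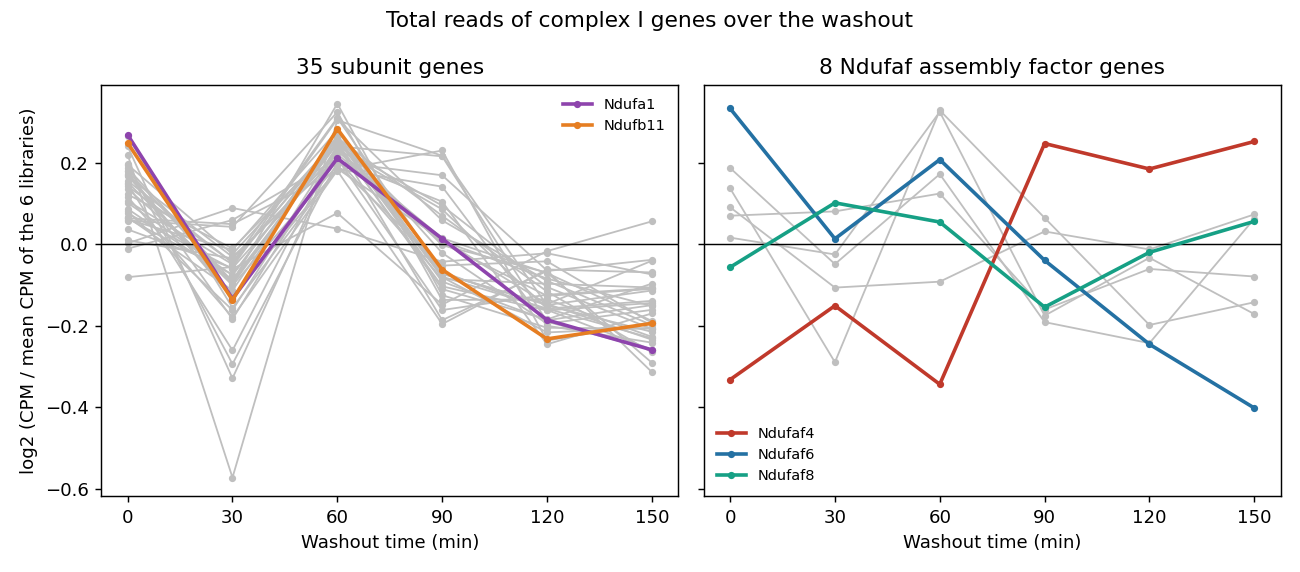
Total reads of the subunit genes (left) and assembly factor genes (right), as log2 of CPM over the gene's mean CPM of the 6 libraries, against washout time (min); grey lines are single genes and coloured lines the genes in the legend. Subunits move together from library to library with their peak at 60 min in 30 of 35 genes, while Ndufaf4 is highest from 90 min on.

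Other genes of the respiratory chain were taken from lists of subunits and assembly factors. Ndufab1, the acyl carrier protein that is also a complex I subunit, fell, at 31.6% labelled at 0 min and 18.1% at 150 min (0.22 per h). Of 11 other complex I assembly factors listed, 8 were in the table, and 4 fell and 0 rose (median 0.20 per h). Tmem186, a membrane arm assembly factor, was 91.5% labelled at 0 min and 8.22% at 150 min, a half-life of 43.4 min by limma's slope. Foxred1 had a half-life of 97.7 min, Lyrm2 116 min and Tmem126b 167 min, while Ecsit, Acad9, Timmdc1 and Nubpl did not pass.

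Of 38 subunits of complexes II to V, 2 fell, Atp5l and Atp5e of complex V, and 0 rose. Their median decay rate was -0.05 per h and their median labelled share 13.7% at 0 min and 13.8% at 150 min. Of 31 tested assembly factors of complexes II to V, 18 fell and 0 rose, with a median of 0.30 per h and a median labelled share of 43.5% at 0 min and 21.2% at 150 min. Sco2, a copper chaperone of complex IV, was the fastest, with 42.6 min. Against the 52.3% of all genes that fell, the share was 18 of 31 for these factors, 3 of 8 for the Ndufaf genes and 4 of 8 for the other complex I factors. Total reads had negative slopes for 38 of 38 subunits and 22 of 32 assembly factors of complexes II to V.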

How the data were processed

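Nuclear RNA from 6 samples, 1 per washout time, had been sequenced as stranded total RNA with paired reads of 81 nt, per the labels. Reads were aligned with STAR 2.5.2b to mm10, per the submitters' processing notes. The sources used do not name the counting program, its annotation or its use of strand. Raw read counts per gene, T>C conversion counts and the count of T positions covered were deposited by the authors, per the file headers (the last 2 printed with 4 significant digits). They also deposited the labelled fraction as a posterior mean, mode and 5% and 95% quantiles. Each column's time came from its leading number, or 0 min where it had none, matched to the titles after removing the characters that all titles end with. Every slope rests on that match. The 18 per-sample columns of other kinds were not used.

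Levels are in RPKM, TMM-scaled reads divided by the length in the table. Genes were matched to GENCODE M21 (23223 of 23281 genes, 45 of 45 Nduf genes). Slopes of ln labelled fraction and ln T>C rate were fitted with limma 3.58.1 on all genes averaging 100 reads or more, and slopes of counts with edgeR 4.0.16 (TMM, filterByExpr), in R 4.3.3, adjusted by Benjamini-Hochberg, with 0.05 as the threshold. DESeq2 1.42.0 was an alternative. T>C rates had a 95% Wilson interval, which covers counting error only. Values per library are given for genes called on the labelled share or T>C rate and, in each class, for the 2 highest and 2 lowest in level and in decay rate; other genes are named as chosen after their values were seen or by their class. The genes and lists were chosen with earlier results of these data known. Values of 1 of the 45 genes on its own are not reported here; it is counted in the class summaries.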

Additional observations from a re-analysis of the deposited data

How the results depend on the processing

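No paired analysis was possible because no washout time had more than 1 library. Ndufaf4 kept its decline in labelled share under all 14 alternatives (largest adjusted p = 0.0461), and Ndufaf8 under 12 of 13, losing it without the 150 min library (0.0604). No called slope changed sign. On the labelled share, leaving out 1 library gave 0 to 1 subunits that fell (1 with all libraries), 1 to 3 assembly factors that fell (3) and 0 to 2 genes that rose (1), with 31.3% to 55.3% of all genes falling and 0.489% to 2.01% rising. With no read minimum 0 subunits fell and 0 genes rose (39.4% and 0.925% of all). At a mean of at least 300 reads, 1 of the 4 assembly factors then tested fell (51.4% of all genes). Ndufaf3 and Ndufaf8 did not reach that minimum and were not tested there. On the logit scale and on labelled abundance 0 rose (0.489% and 0.288%), and with the 30 and 60 min times exchanged 6 rose (4.56%). The cause was not tested. On labelled abundance the slope was negative for 19 of 35 subunits, 7 of 8 assembly factors and 9865 of 11462 genes. The median slope of the subunits was then -0.015 per h, so its sign depended on the measure. On the T>C rate, leaving out 1 library gave 0 to 11 subunits (3) and 0 to 5 assembly factors (5) that fell, with 23.6% to 80.6% of all genes falling. With the times exchanged 18 subunits fell (87.9% of all genes), and with no read minimum 1 subunit and 3 assembly factors (60%). At 300 reads 5 subunits and 2 of the 4 assembly factors then tested fell (67.6%). Where both mates covered the base 5 subunits fell (66.8%), and without both the 30 and 60 min libraries, added after seeing the data, 13 did (80.8%). On total reads, leaving out 1 library gave 0 to 1 genes that rose (0), with 0% to 5.06% of all genes rising. With the times exchanged 6 subunits and 1 assembly factor fell (8.22% of all genes) and 1 gene rose (10.1%). The read numbers of the assembly factors, 172 on average for Ndufaf8, limit the precision of their shares.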
